A study of Mus musculus with 6 samples.

Results

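Expression of the transforming growth factor-beta (TGF-beta) ligands, receptors and latent binders was examined in infarcted mouse hearts that had received miR-19a/19b mimic or control mimic. The 10 genes were chosen by name as the ligands Tgfb1, Tgfb2 and Tgfb3, the receptors Tgfbr1, Tgfbr2 and Tgfbr3, and the latent TGF-beta binding proteins Ltbp1, Ltbp2, Ltbp3 and Ltbp4. All 10 were found among the 26012 genes of the deposited table, and all 10 were among the 21126 genes that entered the test. RNA came from ventricles of male C57BL/6 mice of 8 weeks, collected 4 days after myocardial infarction (MI). The left anterior descending coronary artery had been ligated in every mouse. Of the 6 hearts, 3 received control mimic and 3 received miR-19a/19b mimic, each as 10 μg injected into the heart. A mimic is a synthetic double-stranded RNA that stands in for a mature miRNA once inside the cell. Both groups carried the infarct and the injection, so values relative to an uninjured or uninjected heart were not analysed here. Each group is described as 3 biological replicates, with nothing more on how the hearts relate to each other. The question put to the data was whether the mRNA of these genes differed between mimic groups at this early time.

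TGF-beta is secreted bound to its own propeptide, and this inactive complex is linked to a latent binding protein that holds it in the matrix. Integrins, proteases or thrombospondin release the ligand, which then binds TGFBR2 and draws in TGFBR1, the kinase that phosphorylates Smad2 and Smad3. TGFBR3 (betaglycan) presents the ligand, Tgfb2 in particular, to the signaling receptors. In the infarcted heart this pathway is known for limiting inflammation and for turning fibroblasts into matrix-producing myofibroblasts.

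Reads assigned to genes numbered from 19398196 to 23645308 per heart. The values were counts divided by a size factor of each library, called normalized counts below, and a fold change is the difference of group means of log2(normalized count + 1). Coordinates of genes are those of the files. They match GRCm38 (25884 gene identifiers were found in GENCODE M21, with chromosomes identical and 82.7% of them with identical bounds), whereas the labels name mm9. Cardiomyocyte markers were present in every heart, and their summed normalized count ran from 498035 to 658015 in control mimic hearts and from 307686 to 913274 in miR-19a/19b mimic hearts. The miR-19a/19b mimic replicate 3 had the lowest sum of the 6 hearts, and replicates 1 and 2 had the highest, at 913274 and 823854. Replicate 1 of the miR-19a/19b mimic also held skeletal muscle RNA, with a marker sum of 2734 against 28.3 to 70.9 in the other 5 hearts. The part of these differences in the results below was not tested, and results are given with each heart left out where that altered a count.

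The sequences below show where the injected miRNAs could pair with these mRNAs. The mature miRNAs are given 5′ to 3′ from RefSeq on GRCm38.p6, with the seed, bases 2 to 8, in capitals. miR-19a lies at chr14:115044048-115044070 on the plus strand, and miR-19b at chr14:115044358-115044380 on the plus strand with a copy at chrX:52741991-52742013 on the minus strand.
miR-19a-3p: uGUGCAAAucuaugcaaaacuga
miR-19b-3p: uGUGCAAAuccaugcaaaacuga
Both have 23 bases and the same seed, and they differ at 1 base, U11C, counted from the 5′ end of miR-19a. A match was a run of TTTGCAC (the 7-mer-m8), of TTGCACA (the 7-mer-A1) or of TTTGCACA (the 8-mer, which holds both), searched on the mRNA strand in the longest annotated 3′ UTR with an 8-mer counted once. Of the 10 genes, 1 held a match, which was Tgfbr2 with 2 matches in a 3′ UTR of 6085 bases. Over all genes tested with a 3′ UTR, 18.4% (2907 of 15820) held a match, and their median 3′ UTR was 1103.5 bases long. The pair of Tgfbr2 matches is shown on GRCm38, minus strand, with the matched bases in capitals. The former lies at chr9:116090069-116090091 and the latter at chr9:116088651-116088673.
Tgfbr2 7-mer-m8: caataacgTTTGCACtttattaa
Tgfbr2 7-mer-A1: agattggaTTGCACAaaacttat
The 3′ UTRs without a match included long ones, 4154 bases in Tgfbr1, 3069 in Tgfbr3 and 2656 in Tgfb2, and short ones, 135 bases in Tgfb1 and 260 in Ltbp4. Searching every annotated 3′ UTR of each gene found a match in the same 1 of 10 genes. A match describes the letters only, and pairing was not measured.

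None of the 10 genes passed an adjusted p-value of 0.05 in limma, where 0% of all genes tested did. At an unadjusted p-value under 0.05, 2 of the 10 were lower in miR-19a/19b mimic hearts, against 2.63% of all genes tested, and 0 were higher, against 1.39%. The genes were Tgfb2 and Ltbp2. The same 2 were the members whose groups did not overlap, with all miR-19a/19b mimic hearts below all control mimic hearts, against 5.3% of all genes tested, and 0 lay all above, against 3.9%. The log2 fold change was below 0 for 8 of the 10 genes, against 10398 of all 21126 genes tested. Its median over the 10 genes was -0.06, where that of all genes tested was 0.00. The direction of the median of the 10 genes rested on control mimic replicate 3, without which it was 0.02. In bulk tissue, fewer cells of a type and less RNA per cell cannot be told apart.

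**Figure D1:**
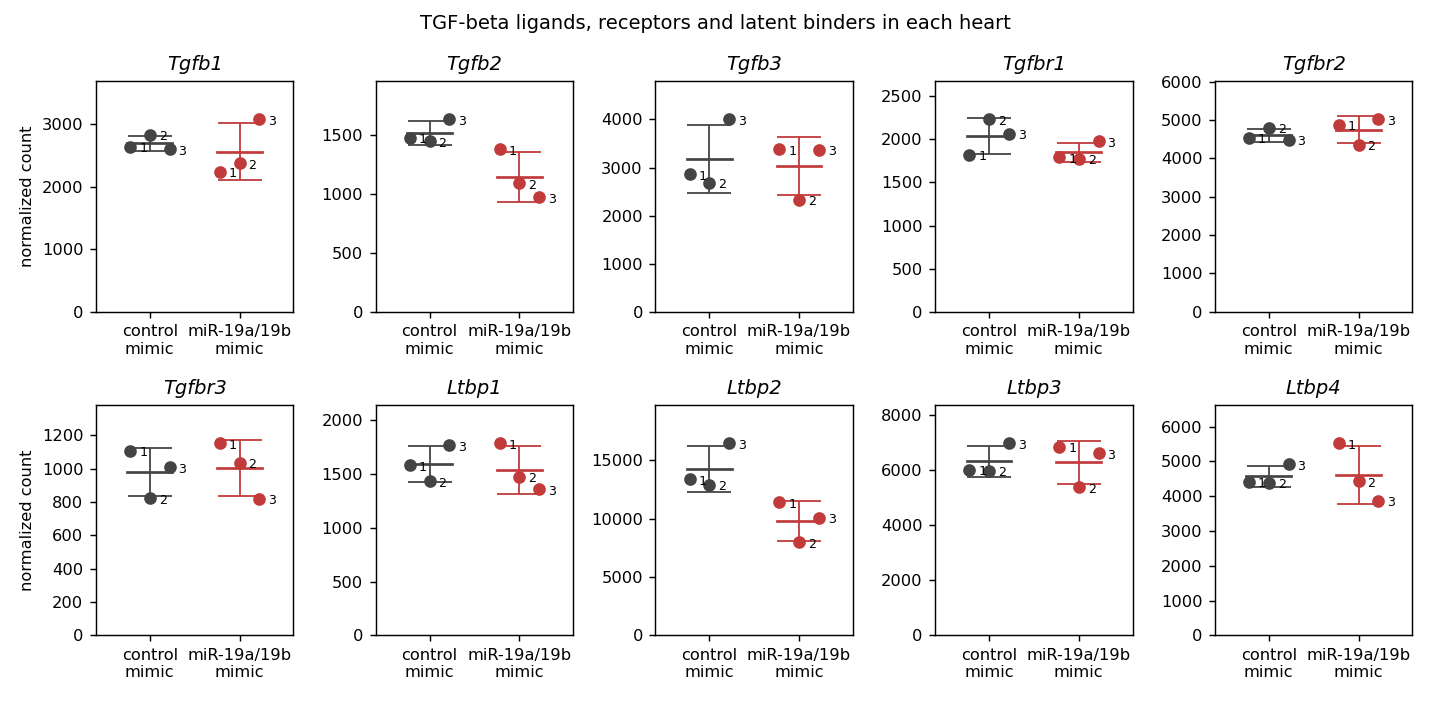
Normalized count of each of the 10 genes in each heart, with control mimic in grey and miR-19a/19b mimic in red. Numbers mark the replicate, the long bar is the group mean and the whiskers are 1 SD (n = 3), and every axis starts at 0. In the panels of Tgfb2 and Ltbp2 the red points lie below all grey points, and in the other 8 panels the groups overlap.

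**Figure D2:**
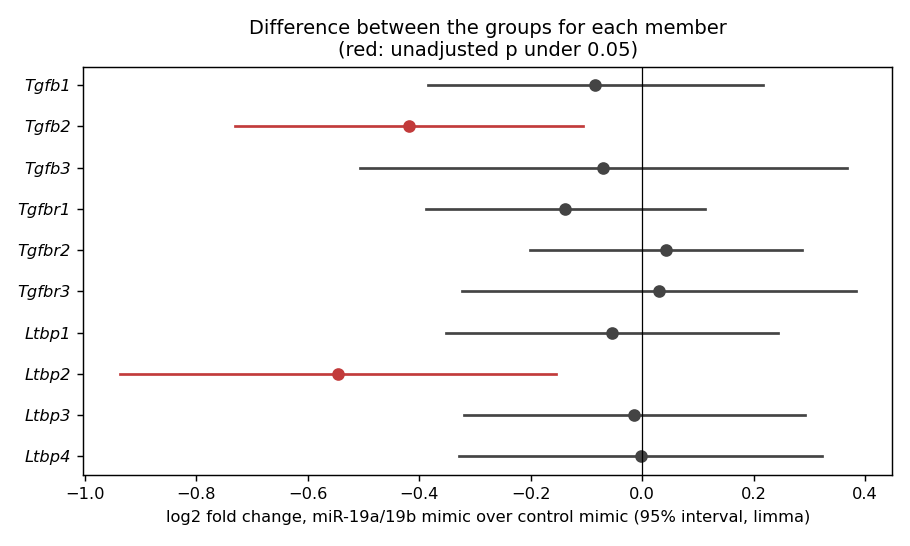
Log2 fold change of each gene, miR-19a/19b mimic over control mimic, with its 95% interval from limma. The intervals of Tgfb2 and Ltbp2 lie below 0, at an unadjusted p-value under 0.05, and those of the other 8 genes cross 0.

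Among the ligands, Tgfb2 (ENSMUSG00000039239, chr1:186622792-186705989, minus strand) was the one that separated the groups. It had normalized counts of 1474, 1443 and 1628 in control mimic replicates 1, 2 and 3. In the miR-19a/19b mimic hearts it had 1377, 1087 and 968, in the same order of replicates. All 3 miR-19a/19b mimic hearts were below the lowest control mimic heart, replicate 1 only narrowly. The means were 1515 ± 99.1 and 1144 ± 210 (SD, n = 3 each), a log2 fold change of -0.42 ± 0.14 (SE). In limma its unadjusted p-value was 0.0142 and its adjusted p-value 1.0. On the linear scale the difference was -25.2%, with a 95% interval from -39.8% to -7.14%. Leaving out each heart in turn gave log2 fold changes from -0.56 to -0.31, and the limma p-value was highest, at 0.0588, without control mimic replicate 3. Tgfb2 is among the genes that the study went on to measure by qRT-PCR, and if it was picked from these libraries its low value here is not independent evidence of direction. Exons of Gm29491 overlap it on the opposite strand, and that gene had at most 1.73 normalized counts. Whether reads were counted by strand is not given in the sources used here, so reads from such overlaps cannot be told apart.

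Tgfb1 (ENSMUSG00000002603, chr7:25687002-25705077, plus strand), the ligand that leukocytes and platelets make in quantity, did not separate the groups. Its normalized counts were 2637, 2829 and 2598 in the control mimic hearts. In the miR-19a/19b mimic hearts they were 2237, 2370.2 and 3071. Replicates 1 and 2 of the miR-19a/19b mimic were the lowest of the 6 hearts and replicate 3 was the highest. The log2 fold change was -0.08 ± 0.13 (SE), with a limma p-value of 0.544. Without miR-19a/19b mimic replicate 3 it was -0.22, with an unadjusted limma p-value of 0.0305 and an adjusted one of 0.274. In that fit 6.12% of all genes tested were lower and 8.41% higher at an unadjusted p-value under 0.05. The summed macrophage markers had the same order in the 3 miR-19a/19b mimic hearts, 55437, 65112 and 86506. They ran from 68656 to 78648 in the control mimic hearts. The part of macrophage RNA in the Tgfb1 values was not tested.

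Tgfb3 (ENSMUSG00000021253, chr12:86056744-86079041, minus strand) was the most variable of the 10 genes among control mimic hearts. Its normalized counts were 2857, 2679 and 4000.4 there, a coefficient of variation (CV) of 22.6%. In the miR-19a/19b mimic hearts they were 3379, 2329 and 3366. The groups overlapped, with the highest value in control mimic replicate 3 and the lowest in miR-19a/19b mimic replicate 2. Its difference on the log2 scale was -0.07 ± 0.19 (SE), and its 95% interval ran from -0.51 to 0.37. Exons of Gm37804 overlap it on the opposite strand, with at most 3.90 normalized counts.

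The receptors did not separate the groups. Tgfbr2 (ENSMUSG00000032440, chr9:116087698-116175363, minus strand), the receptor that binds the ligand first and the gene with the seed matches shown above, had normalized counts of 4540.3, 4798 and 4484 in the control mimic hearts. It had 4881, 4358 and 5018 in the miR-19a/19b mimic hearts. The 3 control mimic values lay inside the range of the miR-19a/19b mimic values. The means were 4607 ± 167 and 4752 ± 348 (SD, n = 3 each). Its log2 fold change was 0.04 ± 0.11 (SE), with a limma p-value of 0.701. On the linear scale the difference was 3.0%, and the 95% interval ran from -13.0% to 22.0%. Its direction was the same with each heart left out, between 0.0021 and 0.10. By qRT-PCR, the paper reports less Tgfbr2 mRNA in hearts given the miRNA mimic than in controls, at the same time after MI. A lower level was not seen in these libraries, although the 95% interval reached down to -13.0%. The cause of this difference between the measurements was not tested.

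Tgfbr1 (ENSMUSG00000007613, chr4:47353222-47414931, plus strand), the kinase that passes the signal to the Smads, had normalized counts of 1817, 2230.0 and 2066 in control mimic hearts. In miR-19a/19b mimic hearts it had 1794, 1771 and 1977. The groups overlapped through control mimic replicate 1. Its log2 fold change was -0.14 ± 0.11 (SE), with a limma p-value of 0.243 and a 95% interval from -0.39 to 0.11.

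Tgfbr3 (ENSMUSG00000029287, chr5:107106570-107289629, minus strand), the co-receptor that favors Tgfb2, had the fewest reads of the 10 genes, 844 to 1080 per heart. Its normalized counts were 1107, 824 and 1009 in control mimic hearts and 1153, 1035 and 820.3 in miR-19a/19b mimic hearts. Each group had 1 heart near 820 and the groups overlapped over nearly their whole range. Its log2 fold change was 0.03 ± 0.16 (SE), and it had the opposite sign without control mimic replicate 2, at -0.09. Gm43422, which shares exon bases with it on the same strand, had at most 4.12 normalized counts.

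Among the latent binders, Ltbp2 (ENSMUSG00000002020, chr12:84783212-84876532, minus strand) separated the groups. Unlike the other 3 binders, LTBP2 is known not to bind latent TGF-beta covalently, and it is a fibrillin-binding protein of elastic fibers. Its normalized counts were 13380, 12915 and 16463 in control mimic replicates 1, 2 and 3. In the miR-19a/19b mimic hearts, in the same order, they were 11396, 7963 and 10085. All 3 miR-19a/19b mimic hearts were below the lowest control mimic heart, which was replicate 2. The means were 14253 ± 1928 and 9815 ± 1732 (SD, n = 3 each), a log2 fold change of -0.55 ± 0.17 (SE). In limma the unadjusted p-value was 0.0118 and the adjusted p-value 1.0. The linear difference was -31.5%, with a 95% interval from -47.8% to -10.1%. With each heart left out the log2 fold change ran from -0.66 to -0.40, and the limma p-value was above 0.05 without control mimic replicate 3, at 0.0587, and without miR-19a/19b mimic replicate 2, at 0.0556. Exons of D030025P21Rik overlap it on the opposite strand, and that gene had at most 26.3 normalized counts.

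Ltbp1, Ltbp3 and Ltbp4, which carry latent TGF-beta, did not separate the groups. Ltbp1 (chr17:75005568-75392512, plus strand) had 1584, 1433 and 1769 normalized counts in control mimic hearts and 1788, 1476 and 1359 in miR-19a/19b mimic hearts. Ltbp3 (chr19:5740904-5758532, plus strand) had 6020.3, 5965 and 6976 in control mimic hearts and 6842, 5378 and 6616 in miR-19a/19b mimic hearts. Ltbp4 (chr7:27305136-27337692, minus strand) had 4419, 4386 and 4914 in control mimic hearts and 5523, 4432 and 3874 in miR-19a/19b mimic hearts. For Ltbp1 and Ltbp4 both the highest and the lowest of the 6 values were miR-19a/19b mimic hearts, replicate 1 and replicate 3. The log2 fold changes were -0.05 ± 0.13 for Ltbp1, -0.01 ± 0.13 for Ltbp3 and -0.0021 ± 0.14 for Ltbp4 (SE), with limma p-values of 0.690, 0.921 and 0.989. On the linear scale the 95% intervals ran from -21.7% to 18.4% for Ltbp1, from -19.9% to 22.4% for Ltbp3 and from -20.3% to 25.1% for Ltbp4. Differences inside these intervals remain compatible with the values of 3 hearts a group.

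Ratios between the genes within a heart do not depend on library scaling. The ratio of Ltbp2 to Ltbp3 was 2.22, 2.17 and 2.36 in the control mimic hearts. It was 1.67, 1.48 and 1.52 in the miR-19a/19b mimic hearts. The ratios of Ltbp2 to Ltbp1, 8.45 to 9.30 against 5.39 to 7.42, and of Ltbp2 to Ltbp4, 2.94 to 3.35 against 1.80 to 2.60, also did not overlap. Set against each of the other binders, Ltbp2 had a smaller ratio in all 3 miR-19a/19b mimic hearts than in any control mimic heart. The ratio of Ltbp2 to Fbn1, the fibrillin-1 gene, was 0.61 to 0.70 in control mimic hearts and 0.500 to 0.592 in miR-19a/19b mimic hearts. The ratio of Tgfb2 to Tgfb1 was 0.510 to 0.627 against 0.315 to 0.616, and that of Tgfb2 to Tgfb3 was 0.407 to 0.539 against 0.288 to 0.467, and both overlapped. Relative to the other ligands, then, Tgfb2 did not separate the groups. The ratio of Tgfb2 to Tgfbr2 was 0.301 to 0.363 against 0.193 to 0.282 and did not overlap. The ratio of Tgfbr1 to Tgfbr2 was 0.400 to 0.465 against 0.367 to 0.406, which overlapped. These ratios were not tested, since the values of Tgfb2 and Ltbp2 are the same as in the comparison above.

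Levels of different genes were compared as normalized count per kilobase of the exon length listed in the files. In control mimic hearts the level was highest for Ltbp2, at 1742 ± 236 per kilobase, followed by Ltbp3 at 1218 ± 110 and Tgfbr2 at 963 ± 34.9 (SD, n = 3). Next came Tgfb3 at 939 ± 212, Ltbp4 at 708 ± 45.8 and Tgfb1 at 533 ± 24.5. The low end held Tgfbr1 at 312 ± 31.8, Tgfb2 at 262 ± 17.1, Ltbp1 at 152 ± 16.1 and Tgfbr3 at 150 ± 22.0. Over all 6 hearts, Tgfb1 and Tgfbr1 were the only neighbors in this order whose ranges did not overlap. Tgfb2 was the least abundant ligand in each heart, with 14.2% to 15.7% of the 3 ligands per kilobase in control mimic hearts and 9.44% to 14.2% in miR-19a/19b mimic hearts. Ltbp2 made up 44.5% to 46.9% of the 4 binders in control mimic hearts and 34.3% to 38.1% in miR-19a/19b mimic hearts. Ltbp3 made up 31.4% to 32.4% and 35.3% to 39.4%, a share of a sum that includes Ltbp2. The log2 fold change of Ltbp3 itself was -0.01. The order and the shares depend on the length used. With the longest transcript Tgfb1 came to 1045 per kilobase, Tgfbr2 to 569 and Ltbp1 to 239, and with the exon union of GENCODE M21, a length chosen after seeing the data, Tgfbr2 came to 563 and Ltbp3 to 697. The files list 4785 bases for Tgfbr2 and 5190 for Ltbp3, where that annotation has 8187 and 9069.

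**Figure D3:**
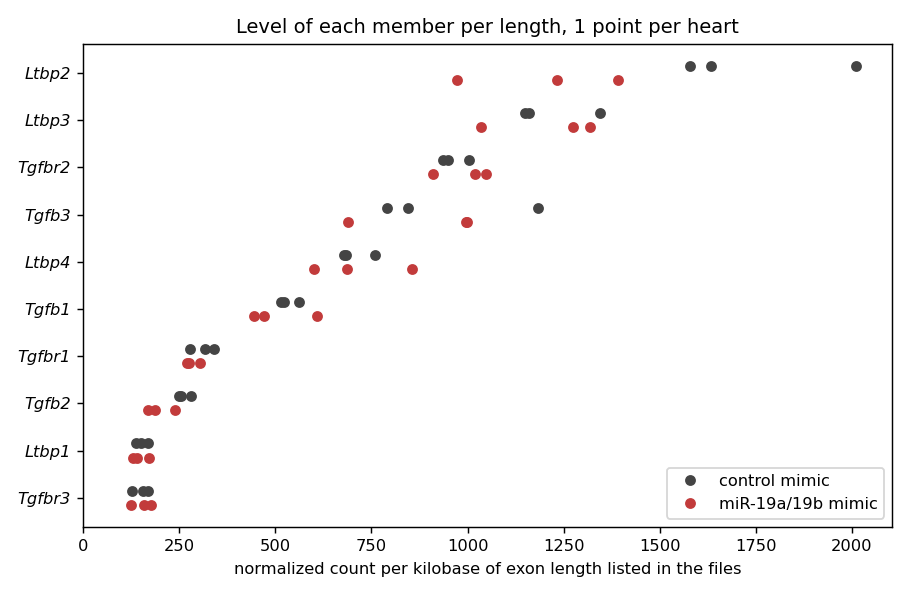
Normalized count per kilobase of listed exon length for each gene, ordered by the control mimic mean, with 1 point per heart, control mimic in grey and miR-19a/19b mimic in red. Ltbp2 has the highest control mimic points, from 1578 to 2012, and its miR-19a/19b mimic points, from 973 to 1392, reach into the range of Ltbp3.

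Summed per kilobase, the 4 binders came to 3819 ± 406 in control mimic and 3269 ± 451 in miR-19a/19b mimic hearts (SD, n = 3). The 3 ligands came to 1734 ± 212 and 1599 ± 224, and the 3 receptors to 1424 ± 39.6 and 1429 ± 77.3. The groups overlapped in each of these sums. Between-heart CVs of single genes, 3.63% to 22.6% in control mimic and 6.11% to 19.9% in miR-19a/19b mimic hearts, are given beside the 0.907% to 3.18% that counting alone gives. The CV was larger among miR-19a/19b mimic hearts for 8 of the 10 genes.

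The other genes of the pathway were taken as 57 genes in 5 lists, all of which were tested. By limma, 6 of them were lower with an unadjusted p-value below 0.05 and 0 were higher, beside the 2.63% and 1.39% of all genes tested, and 0 passed the adjusted threshold. The log2 fold change was below 0 for 43 of the 57, beside 10398 of all 21126 genes tested. Its median was -0.13, beside 0.00 for all genes tested. All miR-19a/19b mimic hearts lay below all control mimic hearts for 8 genes and above them for 0, beside the 5.3% and 3.9% of all genes tested. The count of 6 depended on single hearts. It was 2 without control mimic replicate 3, 3 without miR-19a/19b mimic replicate 2 and 17 without miR-19a/19b mimic replicate 3, where 6.12% of all genes tested were lower.

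Among the 14 activators of latent TGF-beta, 2 were lower at an unadjusted p-value under 0.05, and the list median was -0.17. Lrrc32, whose product (GARP) anchors latent TGF-beta at the cell surface, had normalized counts of 1426, 1534 and 1381 in control mimic hearts and 1094, 1074 and 1253 in miR-19a/19b mimic hearts. The groups did not overlap, and the log2 fold change was -0.35 ± 0.10 (SE), with a limma p-value of 0.00881. It stayed under 0.05 with each heart left out, and without miR-19a/19b mimic replicate 3 its adjusted limma p-value was 0.0395. In that fit 515 of all genes tested passed the adjusted threshold, against 0 with all 6 hearts. Thbs1, encoding the matrix protein thrombospondin-1 that can activate latent TGF-beta, had means of 14026 ± 2927 and 10156 ± 1884 (SD, n = 3 each). Its groups overlapped through control mimic replicate 2, and the log2 fold change of -0.46 ± 0.20 (SE) had a limma p-value of 0.0469, which was above 0.05 in 4 of 6 fits that left out a heart. Thbs1 is also among the genes that the study measured by qRT-PCR. Furin, which cleaves the propeptide, had a log2 fold change of 0.14 ± 0.12 (SE), with a limma p-value of 0.289.

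Among the 5 matrix anchors, 1 was lower at an unadjusted p-value under 0.05 and the median was -0.18. It was Fbln5, encoding fibulin-5, an elastic-fiber protein. Its normalized counts were 1509, 1953 and 1979 in control mimic hearts and 1474, 1086 and 1387 in miR-19a/19b mimic hearts. The groups were apart by the small gap between 1509 and 1474, and the log2 fold change was -0.46 ± 0.15 (SE), with a limma p-value of 0.0139. The p-value was above 0.05 in 3 of 6 fits that left out a heart. Fbn1, which encodes the fibrillin that latent binders attach to, had a log2 fold change of -0.26 ± 0.18 (SE), with a limma p-value of 0.185. The paper reports lower Fbn1 mRNA by qRT-PCR at the same time after MI. In these libraries Fbn1 had the same direction but did not pass 0.05.

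Among the 8 co-receptors and decoys, 2 were lower at an unadjusted p-value under 0.05 and the median was -0.11. Bambi, a decoy receptor without a kinase, had normalized counts of 376, 444 and 378 in control mimic hearts and 298, 345 and 280.1 in miR-19a/19b mimic hearts. The groups did not overlap, and the log2 fold change was -0.38 ± 0.13 (SE), with a limma p-value of 0.0170, which was 0.0680 without control mimic replicate 2. Fmod, encoding fibromodulin, a small proteoglycan that binds TGF-beta, had 679, 581 and 1116 in control mimic hearts and 658, 312 and 388 in miR-19a/19b mimic hearts. Its groups overlapped through miR-19a/19b mimic replicate 1, and the log2 fold change of -0.82 ± 0.30 (SE) had a limma p-value of 0.0240. Without control mimic replicate 3 the log2 fold change of Fmod was -0.54, with a limma p-value of 0.0995, and without miR-19a/19b mimic replicate 2 it was -0.59, with a limma p-value of 0.0990.

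None of the 14 Smads and their regulators was lower or higher at an unadjusted p-value under 0.05, and their median log2 fold change was -0.05. Smad3, which carries the signal to the nucleus, had a log2 fold change of 0.06 ± 0.10 (SE), with a limma p-value of 0.530. Its 95% interval ran from -0.16 to 0.28.

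Among the 18 target genes, 16 had a log2 fold change below 0, beside 10398 of all 21126 genes tested, with a list median of -0.19. At an unadjusted p-value under 0.05, 1 was lower, beside 2.63% of all genes tested. It was Ctgf, a matricellular gene also driven by Yap, with 9893, 13758 and 13403 normalized counts in control mimic hearts. It had 9841, 7751 and 7720.2 in miR-19a/19b mimic hearts, so control mimic replicate 1 lay close to miR-19a/19b mimic replicate 1 while the other hearts stood apart. The log2 fold change was -0.54 ± 0.17 (SE), with a limma p-value of 0.0118, which was 0.0522 without control mimic replicate 3, and Ctgf too is among the genes measured by qRT-PCR. Other direct Smad targets did not pass 0.05. Their log2 fold changes were -0.09 ± 0.13 for the inhibitory Smad gene Smad7, -0.16 ± 0.11 for Skil, which encodes the Smad repressor SnoN, and -0.23 ± 0.13 for Pmepa1, a feedback inhibitor (SE).

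**Figure D4:**
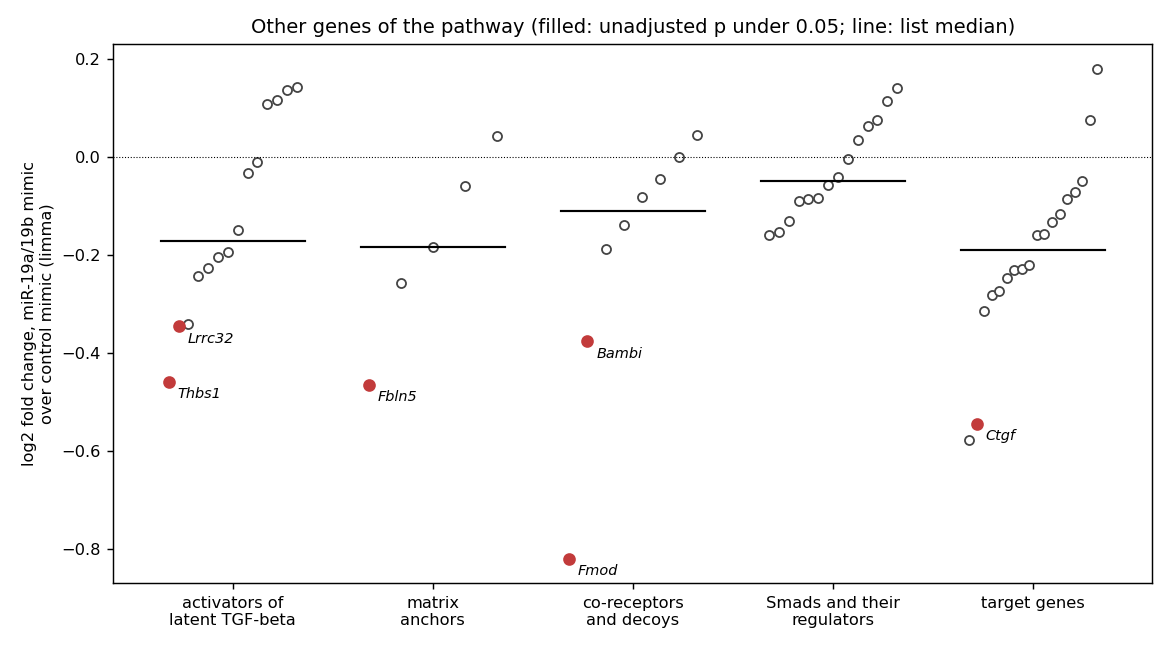
Log2 fold change, miR-19a/19b mimic over control mimic, of the other pathway genes by list, with 1 point per gene (Smad7 and Skil stand in the last 2 lists). Filled points have an unadjusted limma p-value under 0.05 and are named, and the black line is the list median. The 6 named genes lie below 0, and the medians run from -0.19 for target genes to -0.05 for Smads and their regulators.

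Of the 57 pathway genes, 17 (29.8%) held a match to the miR-19 seed in the longest 3′ UTR, beside 18.4% of all genes tested with a 3′ UTR. Differences in 3′ UTR length were not taken into account. Of these 17, 13 had a log2 fold change below 0 and 3 were lower at an unadjusted p-value under 0.05, with a median of -0.16. Of the 40 without a match, 30 were below 0 and 3 were lower, with a median of -0.10. The 3 with a match were Thbs1, Ctgf and Bambi. The matches of the former pair are shown on GRCm38, plus strand, at chr2:118126874-118126896 for Thbs1 and chr10:24598625-24598647 for Ctgf, with the matched bases in capitals.
Thbs1 7-mer-A1: tttatatgTTGCACActgaattg
Ctgf 7-mer-m8: gttacatgTTTGCACctttctag
Neither of the members that were lower at an unadjusted p-value under 0.05, Tgfb2 and Ltbp2, held one of these matches, while Tgfbr2, with the pair shown earlier, had a log2 fold change of 0.04. Outside the pathway, the known miR-19 targets Bcl2l11, a cell death gene, and Socs1, a cytokine suppressor, also did not pass 0.05 in limma. The log2 fold changes were -0.09 ± 0.17 (SE) for Bcl2l11 and -0.27 ± 0.31 for Socs1.

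Markers of the cell types that express these genes were read in the same hearts. The 5 fibroblast markers summed to 12456 to 14113 in control mimic hearts and to 13239 to 14307 in miR-19a/19b mimic hearts, which overlapped. At an unadjusted p-value under 0.05, 0 of the 5 were lower, beside 2.63% of all genes tested. The 7 endothelial markers summed to 23581 to 30073 and 25796 to 27275, and 0 of 7 were lower. Of the 5 mural cell markers, 1 was lower, beside the same 2.63%. It was Cnn1, a contractile smooth muscle gene, with a log2 fold change of -0.62 and a limma p-value of 0.00819. The mural marker sums overlapped, at 14923 to 16847 and 14052 to 17877. The T cell marker sum was low in both groups and did not overlap, at 146 to 210 and 111 to 136. Of the 5 T cell markers, 1 was lower at an unadjusted p-value under 0.05, beside 2.63% of all genes tested. All miR-19a/19b mimic hearts lay below all control mimic hearts for 2 of the 5, beside 5.3% of all genes tested. The platelet marker sum, 2404 to 3492 and 2523 to 5395, was highest in miR-19a/19b mimic replicate 3, the heart with the most Tgfb1. Pf4 alone gave 4636 of the 5395 in that heart. Of the 4 platelet markers, 2 had a log2 fold change above 0 and 2 below. All 4 erythrocyte markers had a log2 fold change below 0, beside 10398 of all 21126 genes tested. At an unadjusted p-value under 0.05, 2 of the 4 were lower, beside 2.63% of all genes tested. These 2 may share reads with near-identical globin genes. The erythrocyte marker sums overlapped, at 2995 to 4009 and 1947 to 3833. All 5 neutrophil markers were below 0 as well, and 1 was lower at an unadjusted p-value under 0.05, beside the same 2.63%. The neutrophil marker sums, 1523 to 1836 and 736 to 2388, overlapped. No marker gene was at 0 in all hearts. The part of fibroblast, endothelial, mural, T cell, platelet, erythrocyte and neutrophil RNA in the results was not tested.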

How the data were processed

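RNA-seq libraries of 3 control mimic and 3 miR-19a/19b mimic hearts were compared, grouped by their labels. Per the methods, the authors removed low-quality reads, and their processing notes name STAR 2.5.1b, HTSeq 0.6.0 and DESeq2 1.10.1, whereas the methods name edgeR for differential expression. The signal that the authors deposited is the read count per gene after division by library size factors (0.905 to 1.16). Within a tolerance of 0.01, 100% of values were whole reads, so reads were recovered for edgeR and DESeq2. The authors also deposited a gene length in bases, used for levels per kilobase, and 3 columns of log2 fold changes and p-values of their own comparison, and a further list chosen with those p-values, which were not used.

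The 21126 of 26012 genes whose normalized counts averaged 1 or more were compared in limma 3.58.1 (R 4.3.3), on log2(normalized count + 1) and with the trend option, and Benjamini-Hochberg adjustment ran over all of them. Since edgeR and DESeq2 need counts, edgeR 4.0.16 and DESeq2 1.42.0 on recovered reads served as alternatives, beside limma-voom, other scalings, filters, pseudocount and leaving out each heart. Limma p-values set each group difference against the spread between hearts, with the variance of each gene moderated toward a trend over all genes. An exact permutation test of 3 hearts against 3 cannot go below 0.1. Scripts were tested on simulated data. Depth was 19398196 to 23645308 reads per heart, and counting CVs cover counting error only.

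The 10 genes and all lists were chosen with earlier results of these data known. Named beside them were every pathway gene with an unadjusted p-value under 0.05, and Smad7, Skil, Pmepa1, Fbn1, Furin, Smad3, Bcl2l11 and Socs1 whatever their values. Some items that this rule or the annotation would name are not reported here. Cnn1 was named after its value was seen. The pathway lists were 14 activators of latent TGF-beta, 5 matrix anchors, 8 co-receptors and decoys, 14 Smads and regulators, and 18 targets. Seed matches were searched in 3′ UTRs of GENCODE M21.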

Additional observations from a re-analysis of the deposited data

How the results depend on the processing

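The adjusted call was 0 of 10 genes under every alternative tried. The tests on recovered reads called 0 genes of all tested with edgeR and limma-voom and 29 with DESeq2, none of them a member. In the 9 alternatives that kept all 6 hearts, including TMM and upper quartile scaling, Tgfb2 and Ltbp2 stayed at an unadjusted p-value under 0.05 and no other member joined them. Scaling moved the median log2 fold change of all genes by less than 0.01. Leaving out each heart gave 0 to 3 members at a lower level with an unadjusted p-value below 0.05. The count was 0 when control mimic replicate 3 was left out, 1 for miR-19a/19b mimic replicate 2 and 3 for miR-19a/19b mimic replicate 3. In those fits, in the same order, 2.07%, 1.96% and 6.12% of all genes tested were lower. With each heart left out in turn, 2 to 17 pathway genes were lower and the members' median was -0.13 to 0.02. The cause was not tested. Ltbp4, near 0, had the opposite sign in 7 alternatives. Tgfb1, Tgfb3, Tgfbr3, Ltbp1 and Ltbp3 each had the opposite sign in 1 or 2 fits that left out a heart, and Tgfb2, Ltbp2, Tgfbr1 and Tgfbr2 in 0. Without miR-19a/19b mimic replicate 3, limma called 515 genes, again no member. Deviations of same-numbered hearts from their group means had correlations of -0.11, -0.02 and -0.01. With 3 hearts a group such correlations cannot show whether the numbers pair the hearts, which is not stated. With the replicate block, 2 members and 6 pathway genes were lower at an unadjusted p-value under 0.05, the members' median was -0.06, and 434 of all genes tested were lower and 207 higher, against 555 and 293 without it. How depth limits the comparison was not tested.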
